A study of Caenorhabditis elegans with 9 samples.

Results

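Wild type Caenorhabditis elegans larvae that had hatched without food, and so stayed in the first larval stage (L1), were profiled on 3 Affymetrix C. elegans arrays out of the 9 arrays of the study. The 3 arrays carry the labels' wild type strain, with no mutant allele, and are labelled as biological replicates. Eggs freed from gravid adults by bleaching were rocked in sterile buffer, and the hatchlings were taken 48 h later, so that age and time without food cannot be told apart and no fed larvae were compared. Total RNA from L1 animals was extracted with Trizol, and 4 ug per sample was made into biotin-labelled cRNA. The other 6 arrays hold larvae that lack the enzyme adding the sugar O-GlcNAc to proteins (ogt-1) or the enzyme removing it (oga-1), and they enter none of the values below.

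A larva that hatches without food arrests in L1. It keeps its body plan, nerve cells, muscles and gut working, divides none of its blast cells, and lives on stores left from the egg and on what it breaks down of itself. Lower signalling through the insulin-like receptor DAF-2, which frees the transcription factor DAF-16, the energy sensor AMPK and autophagy are known to be needed for survival of the arrest.

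Each gene was read by the brightest of the probe sets that the platform annotation ties to that gene symbol alone, which gave 17118 genes from 20766 probe sets of the 22625 on the array. Genes were ranked by the mean of the 3 deposited log2 values. The array also carries 5 probe sets for 4 yeast genes (YEL002c, YEL018w, YEL021w and YEL024w) that a worm lacks, and these served as background. Their values ran between 4.36 and 6.43, and the highest of them was 6.07 on replicate 1, 6.43 on replicate 2 and 6.22 on replicate 3. A gene was called above background where it exceeded the highest yeast value of the same array on all 3 arrays. By that rule 9710 of 17118 genes (56.7%) lay above background, 5944 (34.7%) lay at or below it on every array, and 1464 (8.55%) passed on only 1 or 2 arrays. With limma's one-sided test of the excess over that control in place of the rule, 9398 genes (54.9%) were called. A looser rule, above the median of the yeast controls, passed 71.3% of genes, and a stricter one, a margin of 1 log2 unit over the highest, passed 39.6%. Each is given below for lists whose count it moves by over 1.5 times, and for some others. The median gene had a level of 6.80. At the threshold stood the collagen gene col-71, above by 0.00021 on its lowest array, and the gene ssq-2, at -0.00034. A probe set's brightness depends on its own sequence as well as on the RNA, so the levels order array values and not molecules per cell, and a gene near background is not shown to be silent. Among 2981 genes with several probe sets, the gap between the brightest and the dimmest had a median of 0.83 and exceeded 1 in 42.3% of them.

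**Figure D1:**
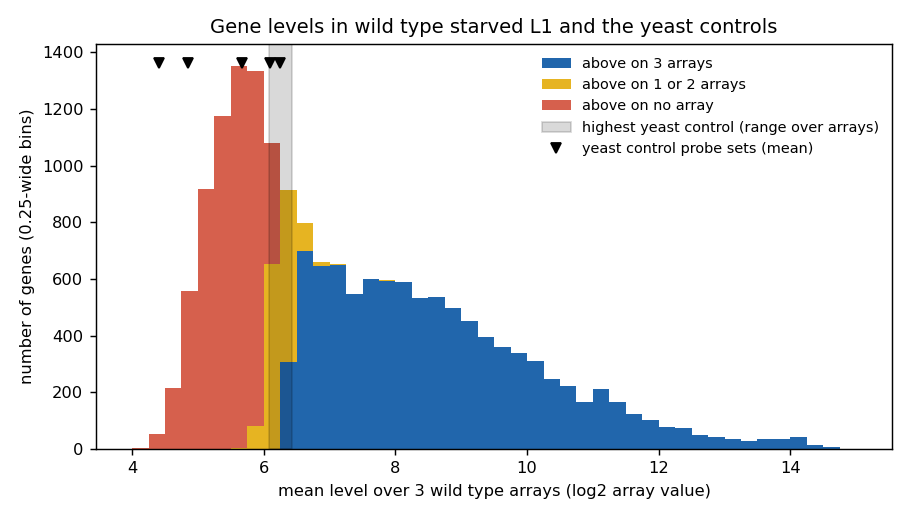
Histogram of the mean log2 array value of 17118 genes over the 3 wild type arrays, in bins 0.25 wide, stacked by whether a gene exceeded the highest yeast control on 3 arrays (blue), on 1 or 2 (yellow) or on none (red). The band spans the highest yeast control of the 3 arrays, 6.07 to 6.43, and the triangles mark the 5 yeast probe sets. The long right arm ends with 60 genes between 14 and 15.

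The ribosome stood at the top of the profile. Of the 30 brightest genes 24 were genes of cytosolic ribosomal proteins, and these made up 63 of the brightest 100 and 75 of the brightest 171. The brightest of them, rpl-8, read 14.54, 14.62 and 14.60 on the 3 arrays. It was followed by rps-3A at 14.54 ± 0.059, rpl-31 at 14.53 ± 0.012, rpl-13 at 14.50 ± 0.039 and rps-2 at 14.50 ± 0.044 (mean ± SD, n = 3). Of the 80 ribosomal protein genes measured, 79 lay above background (98.8%, beside 56.7% of all genes), and the same 79 reached the top 10% of all genes by mean level (1712 genes), which began at 10.21. Their median was 14.05, and the median read 14.01, 14.05 and 14.03 on the arrays in turn. The remaining member, rpl-42, read 5.93, 6.28 and 6.25 on its only probe set and passed on 1 array. Low places within the group also went to rps-20 at 11.35 and rpl-41.1 at 11.09. The order near the top is not resolved: the means of the 30 brightest genes spanned 0.39, while their median SD was 0.047 and the largest 0.13.

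The other 6 genes of the brightest 30 belong to protein breakdown, amino acid breakdown, translation, energy exchange and muscle. The gut protease gene asp-1, which encodes an aspartic protease of the cathepsin D kind, had the highest mean of all genes, with 14.59, 14.64 and 14.55. The gene alh-8, for an enzyme of valine breakdown in mitochondria, followed with 14.51, 14.59 and 14.57. Glutamate dehydrogenase, which turns glutamate into a fuel of the TCA cycle, is encoded by gdh-1 and read 14.32, 14.54 and 14.40. All 3 genes were about as bright as the brightest ribosomal protein genes on every array. Translation elongation factor eef-1A.1 read 14.22, 14.44 and 14.27. The mitochondrial ADP/ATP carrier ant-1.1 read 14.22, 14.31 and 14.21. The myosin light chain gene mlc-2 read 14.24, 14.12 and 14.24. For asp-1, alh-8 and ant-1.1 the array has only 1 probe set that names the gene alone, while the other probe set of gdh-1 had a mean of 12.96, that of eef-1A.1 a mean of 12.69 and that of mlc-2 a mean of 12.18.

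Outside the ribosomal proteins the 20 brightest genes, a list drawn up after the values were seen, spanned 13.98 to 14.59. It held 3 aspartic protease genes, with asp-6 at 14.17 ± 0.11 and asp-3 at 14.06 ± 0.027 beside asp-1. Translation was also represented by eef-2 at 14.08, by iff-2, the gene of a factor that carries the amino acid hypusine, at 14.06, by the ribosome-bound scaffold rack-1 at 14.14 and by icd-2 of the nascent polypeptide-associated complex at 13.98. The enzyme PMT-1, which makes the head group of the membrane lipid phosphatidylcholine, had its gene at 14.10 ± 0.048. The glycolytic aldolase gene aldo-2 and the calreticulin gene crt-1, a calcium-binding chaperone of the endoplasmic reticulum, read 14.03, 14.03 and 13.95, and 14.03, 14.04 and 13.92. The galectin gene lec-2 stood at 14.04, and all 12 galectin genes (lec) lay above background with a median of 10.35. For 21 of the brightest 30 genes the probe set ID carried the suffix _s_ or _x_, which marks probes that can also match other transcripts, against 24.6% of all genes.

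**Figure D2:**
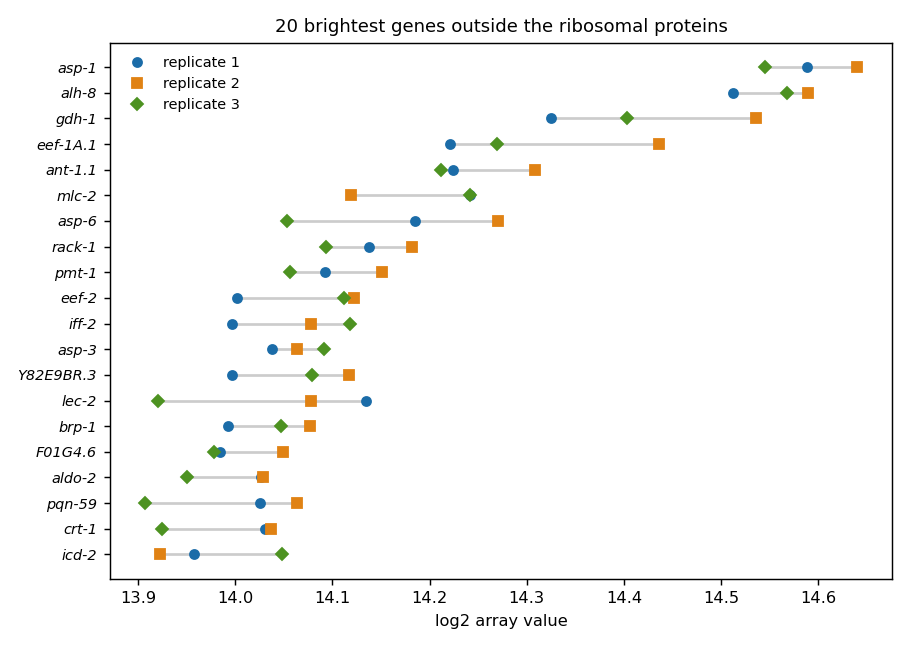
Log2 array value of the 20 brightest genes outside the ribosomal proteins on each of the 3 wild type arrays (circle replicate 1, square replicate 2, diamond replicate 3), ordered by mean from asp-1 at 14.59 to icd-2 at 13.98. The arrays of a gene often lie as far apart as neighbouring genes, so the order within the list is loose.

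Other parts of the protein-making machinery were above background but less bright. Of 36 initiation and elongation factor genes 34 passed, with a median of 9.44. The elongation factors led that list: eef-1B.1 read 13.35, 13.51 and 13.47, whereas the genes of the eIF2B subunits, which recharge an initiation factor, had values between 6.66 (eif-2Bdelta) and 8.80 (eif-2Bbeta). Of 33 genes of aminoacyl-tRNA synthetases, which charge tRNAs with amino acids, 30 passed, with a median of 9.43. The arginine enzyme gene rars-1 read 12.62, 12.36 and 12.32, and the serine enzyme gene sars-1 read 12.35, 12.27 and 12.12. Of 27 ribosome biogenesis genes 26 passed with a median of 8.59, led by lpd-7 at 13.71. The nucleolar repressor gene ncl-1 read 12.07, 11.94 and 11.96. All 20 genes of RNA polymerase subunits passed with a median of 9.12, and ama-1, for the large subunit of polymerase II, averaged 9.71 ± 0.17. Mitochondrial ribosomal protein genes had a median of 8.53, and 56 of 59 passed, the highest being mrps-11 at 12.85 and mrps-5 at 11.95. All 26 measured nuclear pore genes apart from npp-26 (5.71) passed as well, with a median of 8.23 and none in the top 10%.

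Genes of mitochondrial energy production were bright as well. Of 49 respiratory chain and ATP synthase genes 47 lay above background, 33 reached the top 10%, and the median was 11.46. The cytochrome c gene cyc-2.1 read 13.84, 13.70 and 13.71. The ATP synthase subunit genes atp-2 and atp-1 averaged 13.72 ± 0.10 and 13.55 ± 0.088. Among genes named cox, most of which encode subunits of cytochrome c oxidase, 12 of 13 passed, with a median of 12.69 and cox-4 the highest at 13.47. Not above background were cyc-2.2 (5.38), the other cytochrome c gene, and the assembly factor gene cox-19 (5.83). All 21 TCA cycle genes passed and 15 were in the top 10%, with a median of 11.36. Citrate synthase (cts-1) read 13.14, 12.95 and 13.11, and the subunit genes idha-1 and ogdh-1 averaged 12.58 and 12.43. The lowest values of that list were idhg-2 at 7.05 and sucg-1 at 7.64.

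Many genes of sugar metabolism were bright, on a list that mixes glycolysis with gluconeogenesis. Of 20 genes of glycolysis and gluconeogenesis 19 passed and 12 were in the top 10%, with a median of 10.67. Besides aldo-2, the glyceraldehyde phosphate dehydrogenase genes gpd-3 and gpd-2 averaged 13.80 and 13.61. Phosphoenolpyruvate carboxykinase, which starts the path back to glucose, has its gene pck-2 at 12.82, 12.71 and 12.60, while fbp-1, for a later enzyme of the same path, averaged 9.16 ± 0.26. The gene pfk-1.2, for a phosphofructokinase, was not above background at 5.48. The glyoxylate shunt lets worms build sugar from fat, and its bifunctional enzyme gene icl-1 read 14.10, 13.83 and 13.94, rank 69 of all genes. Its other probe sets averaged 13.81 and 13.07, so all of them were bright. The trehalose and glycogen genes around it were lower, with glycogenin gyg-1 at 11.01, the trehalose synthase gene tps-2 at 10.52 and the trehalase gene tre-1 at 10.44. Over that whole list 12 of 13 passed with a median of 9.69, the exception being tre-4 at 5.83.

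Fat synthesis genes were brighter as a group than fat breakdown genes, although the lists hold different genes and probe sets and the difference was not tested. Of 19 genes for making, desaturating and lengthening fatty acids 14 passed and 12 were in the top 10%, with a median of 10.95. The desaturase genes fat-6 and fat-2 read 13.50, 13.63 and 13.56, and 13.40, 13.59 and 13.46. The polyunsaturated steps fat-3 and fat-4 averaged 12.32 and 12.30. In the same list fat-7 (6.26) passed on 1 array only, and fat-5 (5.73) and elo-7 (4.85) on none. Of 68 lipase and beta-oxidation genes 45 passed (66.2%, beside 56.7% of all genes), with a median of 8.13. In the top 10% were 7 of them (10.3%), near the 10% of all genes. The lysosomal lipase gene lipl-5 led with 11.79, 11.75 and 11.84. Next came ech-7 at 11.53, acs-19 at 11.18 and the acyl-CoA synthetase gene acs-2, a known starvation-responsive target of NHR-49, at 11.08. Fatty acid binding proteins, which carry lipids in fluid and cytosol, had 13 of 17 genes above background, with far-1 at 13.14 ± 0.040 and lbp-8 lowest at 4.67.

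Amino acid breakdown and the methionine cycle had 33 of 38 genes above background, 18 in the top 10% and a median of 10.03. Behind alh-8 and gdh-1 stood ahcy-1, for the enzyme that clears S-adenosylhomocysteine, with 12.92, 12.25 and 12.27. The tyrosine aminotransferase gene tatn-1 read 12.44, 12.60 and 12.14. For ahcy-1 replicate 1 thus stood apart from the other arrays. The lists of amino acid breakdown, RNA polymerase and ribosome biogenesis were added after the files were read.

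**Figure D3:**
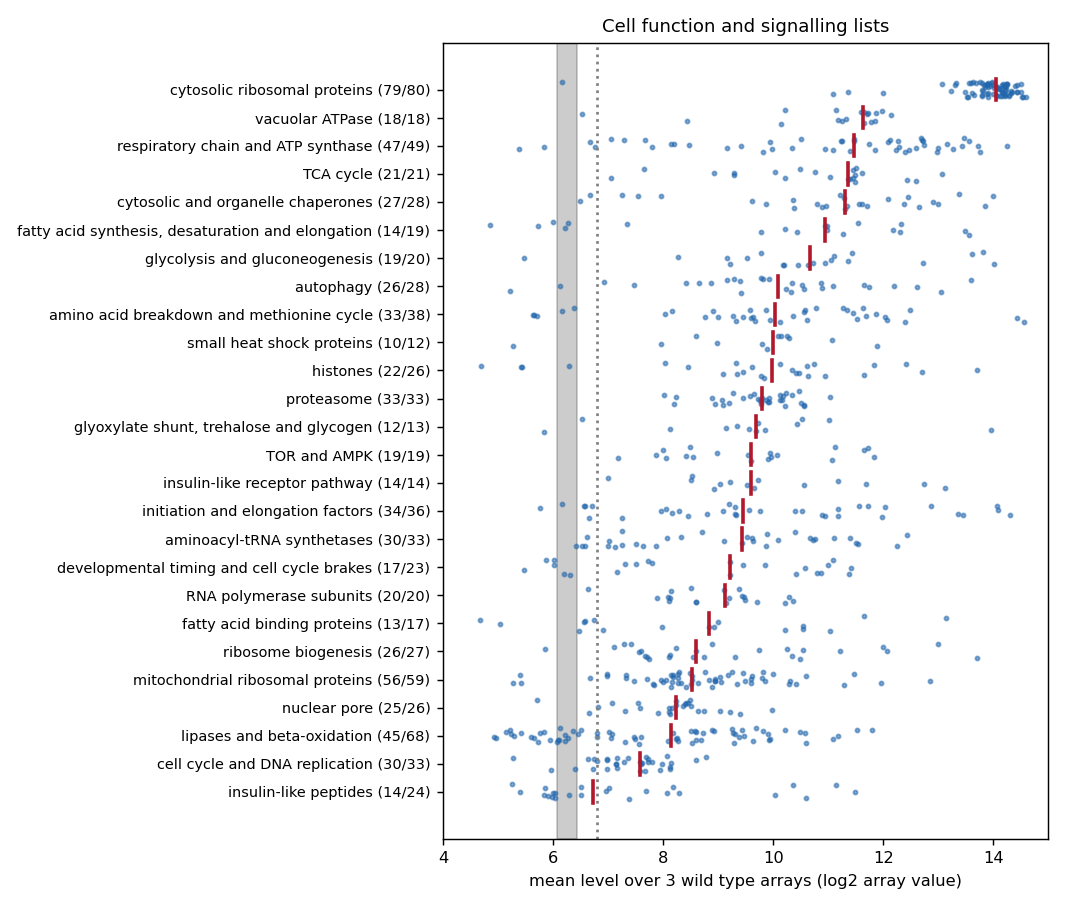
Mean log2 array value of every gene in the lists of cell function and signalling. Each point is a gene, each red bar a list's median, and the numbers give genes above background over genes measured. The grey band is the range of the highest yeast control and the dotted line the median of all genes, 6.80. Ribosomal proteins lie around 14.05, energy lists between 8.13 and 11.46, and the insulin-like peptides lowest at 6.73.

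The chaperone, small heat shock, proteasome and autophagy lists had medians from 9.80 to 11.30, with a few members at background. Of 28 chaperone genes 27 passed and 21 were in the top 10%, with a median of 11.30. The hsp-90 gene read 13.85, 13.80 and 13.87, the constitutive heat shock cognate gene hsp-1 13.42, 13.40 and 13.30, and the chaperonin subunit gene cct-4 13.01, 12.98 and 13.01. The chaperonin subunit cct-3 (6.49) passed on 2 arrays only, although its protein works in the same ring, and cct-8 read low as well at 6.66. Small heat shock protein genes had 10 of 12 above background and a median of 9.99, with hsp-12.2 at 12.07, 11.66 and 11.94 and hsp-12.1 lowest at 5.26. Among them hsp-16.21 and hsp-12.6 differed by over 1 log2 unit between arrays, as described further on. The gene hsp-16.41 read 10.07, 10.77 and 9.89. All 33 proteasome genes passed within a narrow band from 8.01 (pas-7) to 11.03 (pas-3), with a median of 9.80. The autophagy list had 26 of 28 genes above background, 14 of them in the top 10%, and a median of 10.08. Its brightest members encode the ubiquitin-like proteins that coat autophagosomes, lgg-1 with 13.72, 13.54 and 13.53 and lgg-2 with 13.09, 13.04 and 13.02. The cargo receptor gene sqst-1 averaged 12.60 ± 0.26 and the lipid-binding factor gene atg-18 averaged 12.19 ± 0.097. The lowest autophagy gene, atg-10, for the enzyme joining 2 other autophagy proteins, had 5.21. All 18 vacuolar ATPase genes, for the pump that acidifies lysosomes, passed with a median of 11.63, from vha-1 at 12.14 to vha-18 at 6.52.

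Of the insulin-like receptor pathway all 14 measured genes lay above background, with a median of 9.59. The receptor gene daf-2 was the lowest, with 6.84, 7.19 and 6.96 on its brightest probe set, and its other 3 probe sets averaged 6.33, 6.10 and 5.55 and were not above background on all arrays. The kinase genes that follow it ran from pdk-1 at 8.50 and age-1 at 8.52, through akt-2 at 9.52 and sgk-1 at 9.72, to akt-1 at 10.55, which read 10.85, 10.37 and 10.43. Other probe sets of pdk-1 averaged between 5.74 and 7.43, and those at 5.74 and 6.17 were not above background on all arrays. The receptor substrate gene ist-1 stood at 9.66, the adaptor subunit gene aap-1 at 9.02, the phosphatase gene daf-18, which opposes AGE-1, at 9.21, and pptr-1, a phosphatase subunit acting on AKT-1, at 8.92. The transcription factor gene daf-16 read 11.75, 11.62 and 11.67, and its other 3 probe sets averaged 11.33, 10.94 and 8.39. Its counterpart pqm-1 read 11.42, 11.12 and 10.99. The genes par-5 and ftt-2, for the adaptors that hold phosphorylated DAF-16 in the cytoplasm, were the brightest of the pathway at 13.12 ± 0.089 and 12.74 ± 0.092. The order of neighbours such as pdk-1 and age-1, or ist-1 and sgk-1, is within their SDs over the arrays, 0.20 and 0.27 for the pair of pdk-1 and age-1.

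Of 24 insulin-like peptide genes, the ligands of that receptor, 14 lay above background (58.3%, near the 56.7% of all genes). Their median was 6.73, near the 6.80 of all genes. The highest were ins-35 with 11.59, 11.65 and 11.23, ins-17 with 11.12, 11.09 and 11.18, ins-1 with 10.66, 10.46 and 10.64, and ins-30 with 10.20, 10.24 and 10.62. Those 4 were far above background on every array. The peptide gene ins-7 stood at 5.40, ins-37 at 5.25 and ins-32 at 5.84, all of them not above background on any array. The share of these genes above background was 83.3% by the looser rule and 37.5% by the stricter, beside 71.3% and 39.6% of all genes.

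All 19 measured genes of the TOR and AMPK pathways passed too, with a median of 9.60. The AMPK catalytic subunit genes aak-2 and aak-1 were the brightest, with 11.96, 11.73 and 11.77, and 11.75, 11.87 and 11.57. The scaffold subunit genes aakb-1 and aakb-2 stood at 10.06 and 7.17, and the nucleotide-sensing subunit genes at 9.96 (aakg-2), 9.91 (aakg-5), 8.48 (aakg-3), 8.41 (aakg-4) and 7.87 (aakg-1). The upstream kinase gene par-4 averaged 8.05 on its brightest probe set. Its other probe sets averaged 5.47 and 5.46 and were above background on no array. The TOR kinase gene let-363 read 9.62, 9.53 and 9.64, its partner gene daf-15 (Raptor) 11.08, 11.25 and 11.01, and rict-1 (Rictor) 8.89, 8.93 and 9.12. Of the GTPases that switch TOR on, ragc-1 stood at 9.93, rheb-1 at 9.55 and raga-1 at 8.55, with the folliculin gene flcn-1 at 11.07. The S6 kinase gene rsks-1, a TOR target that promotes translation, averaged 7.99 ± 0.36, and hlh-30, the transcription factor for lysosome and autophagy genes that TOR restrains, averaged 11.65 ± 0.11. All 3 probe sets of hlh-30 were above 10.6 on average.

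Developmental timing genes and cell cycle brakes had 17 of 23 genes above background and a median of 9.21. The TGF-beta ligand gene daf-7, made by a pair of head neurons in growing larvae, read 11.30, 11.50 and 11.43. The RNA-binding timing gene lin-28 read 11.09, 11.12 and 11.03, and its other 2 probe sets averaged 9.66 and 9.50. The signal transducer gene daf-14 read 11.11, 10.88 and 11.01, and asna-1 averaged 11.38. The cyclin-dependent kinase inhibitor gene cki-1, which holds blast cells in arrest and is named after its value was seen, averaged 10.57. The timing transcription factor gene lin-14, known for a high protein level in L1, read 5.62, 5.47 and 5.34 on its only probe set, which is not above background on any array. The timing gene lin-42 (6.01), which cycles with the molts, was not above background on any array either, and unc-31 (5.88) was above it on 1.

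Cell cycle and DNA replication genes mostly lay above background, but none was among the brightest. Of 33 genes 30 passed (90.9%, beside 56.7% of all genes), and the median was 7.57, above the 6.80 of all genes. None reached the top 10%. By the stricter rule 51.5% of them passed, beside 39.6% of all genes. The polo kinase gene plk-1 was highest with 8.70, 8.84 and 8.82, followed by the ribonucleotide reductase subunit gene rnr-2 at 8.59, cyb-3 at 8.14 and mcm-5 at 8.12. The cyclin E gene cye-1 (5.95) and the replication licensing gene cdt-1 (5.27) were not above background on any array. Histone genes differed within the family, with 22 of 26 above background and a median of 9.97. The linker histone gene his-24 read 13.51, 13.61 and 13.98, and his-72, for the H3.3 variant that is deposited outside S phase, read 12.76, 12.52 and 12.81. Many histone genes are near-identical copies, and their probe sets may read several of them.

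Tissue markers were read as lists chosen with earlier results of these data known, so they do not test the label of whole larvae. Body wall muscle had 30 of 31 genes above background and a median of 10.76, pharynx 15 of 17 and 10.41, and intestine 33 of 33 and 10.29. In muscle, mlc-2 and mlc-3 averaged 14.20 and 13.97, paramyosin (unc-15) read 13.08, 12.98 and 13.23, and tropomyosin (lev-11) 13.11, 12.71 and 12.91. The muscle-fate gene hlh-1 passed on 2 arrays only, at 6.30. The pharyngeal myosin gene myo-1 averaged 12.69 ± 0.22, tnt-4 12.16 and tnc-2 11.67, while the gland genes phat-1 (6.13) and phat-4 (6.64) did not pass on all arrays. The intestine list was led by the proteases asp-1, asp-6, asp-3 and asp-5 (13.58 ± 0.038). Its lowest member, the early gut-fate gene end-1, which acts in the embryo, stood at 6.61. Genes that mark smaller tissues were dimmer: the excretory canal list had 10 of 10 above background with a median of 8.13, the coelomocyte list 5 of 5 with 8.05, and the glia list 5 of 8 with 7.04. The glia share (62.5%) was near that of all genes and was 25% (1 of 4 genes) over probe sets that carry no _s_ or _x_ suffix. In RNA from whole animals fewer cells of a type and less RNA per cell cannot be told apart.

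The nervous system was prominent through its peptides. Of 25 genes of FMRFamide-like neuropeptides (flp) 24 lay above background, 19 of them in the top 10%, with a median of 11.52. The highest were flp-9 with 12.77, 12.90 and 12.86, flp-3 with 12.62, 12.74 and 12.78, flp-1 with 12.57, 12.68 and 12.65 and flp-12 with 12.32, 12.31 and 12.23. The exception was flp-23 at 5.42. Other neuropeptide-like protein genes (nlp) had 50 of 58 above background, 26 in the top 10% and a median of 9.99, led by nlp-80 at 12.71. The processing enzymes were brighter still. The proprotein convertase gene egl-3 read 13.73, 13.82 and 13.78, with its other probe set at 13.34, and the carboxypeptidase gene egl-21 read 13.74, 13.71 and 13.65. Over all 28 pan-neuronal and synaptic genes 24 passed, with a median of 10.33. The other 4 passed on only 1 or 2 arrays, and the lowest of the list was unc-31 at 5.88. The dense-core vesicle gene ida-1 averaged 12.25 ± 0.040 and the synaptobrevin gene snb-1 12.01 ± 0.071.

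Genes that give a neuron its transmitter were lower, with 17 of 18 above background and a median of 7.86. The acetylcholine vesicle transporter gene unc-17 read 10.28, 10.07 and 10.43, and cha-1, for the enzyme that makes acetylcholine, averaged 9.68. The dopamine synthesis gene cat-2 was the lowest at 6.39 and passed on 2 arrays. Touch neuron genes had 9 of 10 above background, led by mec-17 at 10.43 ± 0.018 and the tubulin gene mec-7, which read 10.72, 10.45 and 9.89. Cilium genes had 19 of 29 above background (65.5%, beside 56.7% of all genes) and a median of 6.98, near the 6.80 of all genes. The ciliary regulator gene daf-19 stood at 10.90 and the motor gene osm-3 at 8.65, while bbs-2 (5.39) and the channel subunit gene tax-2 (5.16) were not above background on any array.

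Chemoreceptor genes, the largest set, were mostly near background. Of 1278 genes 197 passed (15.4%, beside 56.7% of all genes), 924 lay at or below background on every array, and the median was 5.78. The share was 47.2% by the looser rule and 2.66% by the stricter, below the share of all genes by each. Only srr-4 and odr-10 reached the top 10%. The gene srr-4 read 12.60, 12.59 and 12.51. The gene odr-10, the receptor for diacetyl that a pair of olfactory neurons carries, read 11.90, 12.02 and 11.98. After these the highest was sri-31 at 9.05 ± 0.051, so a wide step separated those 2 genes from the rest of the set. By family, of at least 10 genes, the shares above background ranged from 7.46% of srbc genes (5 of 67) and 7.5% of srj genes (3 of 40) to 25.8% of srsx genes (8 of 31) and 26.3% of srd genes (15 of 57).

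Genes of the epidermis and its cuticle were divided between bright members and members at background. The hypodermis and seam list had 18 of 31 genes above background (58.1%, near the 56.7% of all genes). Its median was 6.90, close to the 6.80 of all genes, and 35.5% passed by the stricter rule, beside 39.6% of all genes. The collagen gene sqt-3 averaged 10.97 ± 0.23, though its other probe set averaged 6.91. The junction genes ajm-1 and let-413 averaged 10.54 and 10.26, and dpy-13 10.16. The collagen genes bli-1 (5.44), bli-2 (5.51) and sqt-1 (4.72) of later stages were not above background. Of 128 cuticle collagen genes (col) 52 passed (40.6%), 9 were in the top 10% and the median was 6.23 (61.7% passed by the looser rule and 25% by the stricter). The highest, col-125, read 12.86, 12.39 and 12.08, col-93 averaged 12.41, col-147 11.90 and col-118 11.60. The probe sets read for sqt-3, dpy-13, col-125, col-93 and col-147 carry the suffix _x_, so they can also match other transcripts. Among 33 astacin metalloproteases, secreted enzymes that include those used in molting, 12 passed, led by nas-9 at 10.34, with a median of 5.84 (12.1% by the stricter rule). Hedgehog-related and patched-related genes had 35 of 81 above background and a median of 6.13 (19.8% by the stricter rule). Their highest values were those of patched-family members, with ptr-24 at 11.55, ptc-1 at 11.13 and ptr-23 at 10.19.

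Of the lists for adult tissues that an L1 larva lacks, those of yolk and sperm had medians below the 6.80 of all genes, and that of oocyte and eggshell a median above it. Of 5 vitellogenin (yolk protein) genes, which adult intestine makes, vit-6 at 6.81 and vit-4 at 6.40 passed and vit-5 (5.93), vit-1 (5.86) and vit-2 (4.56) were not above background on any array, with a median of 5.93. The other probe set of vit-6 averaged 5.17, those of vit-4 averaged 6.21 and 6.16, and none of the 3 passed on all arrays. With the mean of the probe sets of a gene, or with the margin of 1 log2 unit, no vitellogenin gene passed. Of 72 sperm genes 22 passed (30.6%), with a median of 6.04, the highest being spe-48 at 8.28 and spe-39 at 8.13. The sperm share was 63.9% by the looser rule and 4.17% by the stricter. Of 21 oocyte and eggshell genes 17 passed (81%, beside 56.7% of all genes), with a median of 6.99, but only 19% did so by the stricter rule. The eggshell gene cpg-1 averaged 9.21 ± 0.13, the RNA-binding protein gene puf-7 8.96 ± 0.16 and the polarity gene mex-5 8.13. The other probe sets of cpg-1 and mex-5 averaged 7.51 and 6.92. The lowest member, puf-11, stood at 5.61, and cpg-2 (5.97) and perm-2 (6.04) passed on 1 array only. In all 3 of these lists no gene reached the top 10%. Whether eggs, adults or RNA laid down by the mother took part in these values was not tested. A larva of this stage has only its pair of primordial germ cells, and 24 of 31 germ cell genes passed, with a median of 7.18 (32.3% by the stricter rule). The poly(A) polymerase subunit gene gld-2, also active in neurons, averaged 10.67, nos-3 10.25, the Piwi gene prg-1 9.61 and the P granule helicase gene glh-1 8.75.

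**Figure D4:**
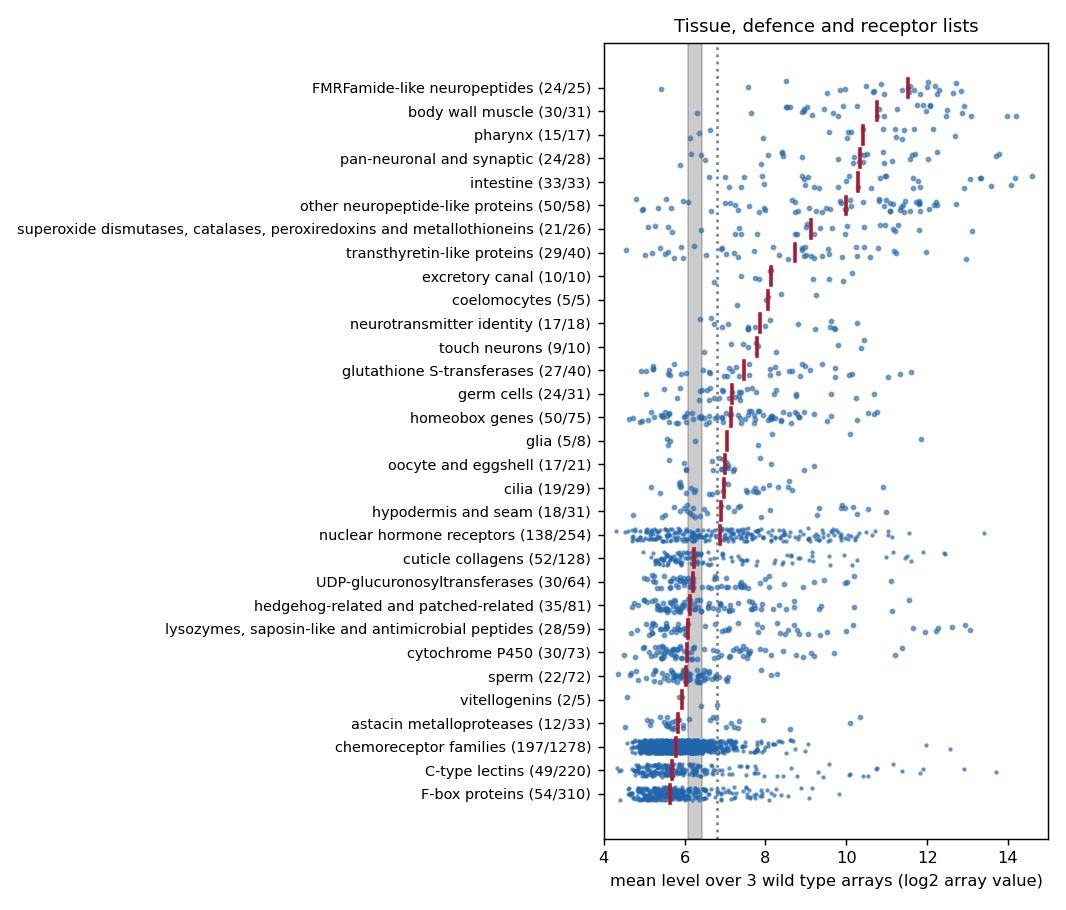
Mean log2 array value of every gene in the lists of tissue markers, stress and defence families, receptors and secreted proteins, drawn as in the plot of cell functions. Neuropeptide, muscle, pharynx, neuron and gut lists have medians from 9.99 to 11.52, while chemoreceptors, C-type lectins and F-box proteins have medians of 5.63 to 5.78 with most points on or left of the background band.

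Defence and detoxification families differed. Most C-type lectin and cytochrome P450 genes did not pass on all arrays, and most antioxidant genes did. Of all genes, 56.7% passed, and 71.3% did so by the looser rule and 39.6% by the stricter. Of 220 C-type lectin genes 49 passed (22.3%) with a median of 5.68 (40.9% by the looser rule and 11.4% by the stricter), yet clec-63 read 13.77, 13.70 and 13.64 and clec-17 averaged 12.91 ± 0.034. Lysozyme, saposin-like and antimicrobial peptide genes had 28 of 59 above background (47.5%), with the saposin-like genes spp-1 at 13.07, spp-8 at 12.94 and spp-18 at 12.61 on top. Of 73 cytochrome P450 genes 30 passed (41.1%), led by cyp-37B1 at 11.38 and cyp-32B1 at 11.21. Of 64 UDP-glucuronosyltransferase genes 30 passed (46.9%), led by ugt-58 at 11.11. By the stricter rule 19.2% of P450 genes and 20.3% of glucuronosyltransferase genes passed. Of 40 glutathione S-transferase genes 27 passed (67.5%), with gst-20 at 11.60 and a median of 7.47. Genes against reactive oxygen and free metals had 21 of 26 above background and a median of 9.12. The peroxiredoxin gene prdx-2 read 13.15, 13.18 and 12.98, the ferritin gene ftn-2 averaged 11.80, the extracellular superoxide dismutase gene sod-4 11.28 and gpx-3 11.20. Of 40 secreted transthyretin-like genes (ttr) 29 passed (72.5%), with a median of 8.72 and ttr-16 at 12.97. Of 58 abu and pqn genes, whose proteins are rich in glutamine and asparagine or cysteine, 41 passed with a median of 7.27 (43.1% by the stricter rule), and pqn-53 averaged 13.27. Of 16 tubulin and actin genes 14 passed with a median of 9.14, led by act-4 at 12.87 and tba-1 at 12.51.

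Regulator families also held a few bright members. Of 254 nuclear hormone receptor genes 138 passed (54.3%) and the median was 6.87, near that of all genes (33.9% by the stricter rule). The receptor gene nhr-88 read 13.47, 13.58 and 13.15, and its other 3 probe sets averaged 11.20, 10.80 and 10.23. The next were nhr-34 at 11.56, nhr-18 at 11.13 and nhr-49, a regulator of fat use under starvation, at 11.03. Of 75 homeobox genes 50 passed (66.7%, and 42.7% by the stricter rule, beside 56.7% and 39.6% of all genes), led by ceh-38 at 10.76 and ceh-20 at 10.67. Of 310 F-box protein genes, adaptors that mark proteins for breakdown, 54 passed (17.4%) and none reached the top 10%, with fbxa-24 the highest at 9.82. The share was 37.4% by the looser rule and 8.06% by the stricter. In the fbxb family 0 of 95 genes passed, and 89 lay at or below background on every array.

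Medians were also taken for all 165 families of at least 10 genes that share a symbol prefix. Several of these families are lists given above or parts of them. The highest medians were those of rpl (14.10), rps (13.99), cox (12.69), vha (11.63), flp (11.52) and lec (10.35). The lowest were those of math (5.38), pals (5.42), chil (5.46), fbxb (5.49), gtnt (5.50) and srj (5.51). The highest members of these low families were math-33 at 9.87, srj-14 at 8.97, chil-13 at 8.74, gtnt-42 at 8.61 and pals-32 at 8.19, while that of fbxb, fbxb-74, stood at 6.31 and passed on 2 arrays only. By the gene table of assembly WBcel235, 58.9% of 16173 protein-coding genes lay above background, and 15.5% of 871 pseudogenes did. Chromosome V had the lowest share, 44.3% of 4316 genes, and chromosome III the highest, 68.2% of 2251. Without chemoreceptor and F-box genes the share was 52.9% on chromosome V and 69.6% on chromosome III, against 60.9% for all genes left.

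The target genes of the study's mutants were both expressed in wild type larvae. The O-GlcNAc transferase gene ogt-1 read 11.86, 11.45 and 11.43, rank 611 of 17118, and its other probe set averaged 11.02. The O-GlcNAcase gene oga-1 read 9.92, 9.33 and 8.99, and its other 2 probe sets averaged 7.50 and 6.79. Replicate 1 was the highest on each of these 5 probe sets, and for oga-1 the replicates spread by 0.92.

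The 3 arrays ranked genes much alike. Pearson's r across genes was 0.992, 0.990 and 0.990 for the 3 pairs, which describes these arrays, since genes are not independent replicates. The top 100 genes of each array alone shared 95 or 96 genes with the top 100 by mean. The median SD of a gene over the arrays was 0.14. Precision rests on 3 arrays, as array values carry no count depth. The arrays differed in the quantities used to judge RNA and hybridisation. The interquartile range of all probe sets, controls included, was 3.07, 2.75 and 2.92. The log2 ratio of the 3' to the 5' actin probe sets was 0.24 on replicate 1, 0.77 on replicate 2 and 0.68 on replicate 3.

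Some genes nonetheless differed widely between the wild type arrays. Of the 9710 genes above background 179 (1.84%) had a range over 1 log2 unit and 14 a range over 2. The widest belonged to sod-5, for a cytosolic superoxide dismutase, which read 11.53, 9.27 and 7.26. The asparagine synthetase gene asns-2 read 9.88, 8.32 and 7.004, and clx-1 read 10.51, 8.47 and 7.73. The collagen gene col-12 read 11.04, 10.19 and 8.63, the transthyretin-like gene ttr-2 8.83, 7.71 and 6.59, and the antimicrobial peptide gene cnc-4 8.41, 9.29 and 7.17. The others among the 12 widest in which replicate 1 was highest are tag-18, Y39B6A.1 and Y47D7A.13. In 3 of the 12 replicate 3 was the highest: the sugar transporter gene swt-3 read 7.74, 7.69 and 10.29, dpf-6 read 8.31, 8.31 and 10.53, and F23F12.12 read 9.03, 8.69 and 11.08.

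Among all 179 wide genes, replicate 1 was the highest array in 102 and replicate 3 the lowest in 111, and 94 (52.5%) had both. The wide genes were not spread evenly over the lists. Antioxidant genes held 5 of 21 and transthyretin-like genes 4 of 29, each time with replicate 1 highest. Small heat shock genes held 3 of 10, with replicate 2 highest in 2 of them. Lysozyme, saposin-like and antimicrobial peptide genes held 4 of 28, with replicate 3 highest in 2 of them. Collagen genes held 5 of 52, with replicate 1 highest in 4. By contrast 0 of 79 ribosomal protein genes and 0 of 33 proteasome genes were wide. Over all genes, those below background included, the widest range was that of the heat shock gene hsp-16.21, named after its value was seen, which read 10.23, 8.08 and 5.60 and so fell below background on replicate 3. Its relative hsp-12.6, a DAF-16 target, read 10.85, 10.87 and 9.16. The gene lea-1, whose protein protects cells against drying and is also named after its value was seen, read 13.44, 12.33 and 11.45. Whether culture, RNA quality or array handling took part in these differences was not tested.

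**Figure D5:**
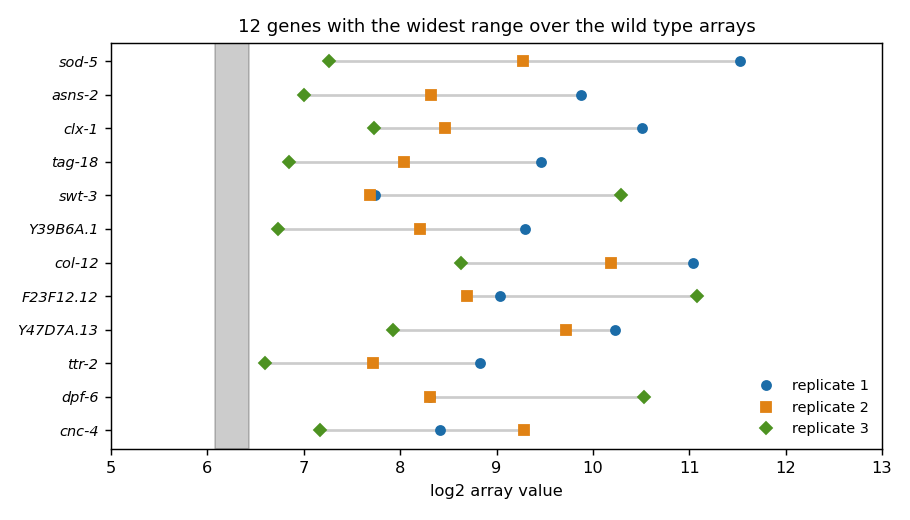
Log2 array value of the 12 genes with the widest range over the 3 wild type arrays among genes above background on all of them (symbols as in the plot of the brightest genes). The grey band is the range of the highest yeast control. Replicate 1 lies highest in 8 genes and replicate 3 in 3, and sod-5 spans 7.26 to 11.53.

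Different probe sets of the same gene disagreed more than arrays did. In 602 of 2981 genes with several probe sets (20.2%), some but not all of them were above background. The largest gap was that of rpl-8, whose brightest probe set averaged 14.59 and whose other probe set 5.41. The tropomyosin gene lev-11 had 7 probe sets between 4.77 and 12.91, and rpl-12 had 3, between 6.59 and 14.39. Reading a gene by its brightest probe set therefore gives the upper end of what the array recorded.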

How the data were processed

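Total RNA of starved L1 larvae was measured on Affymetrix C. elegans arrays, and the 3 wild type arrays were used here. The authors deposited 1 log2 value per probe set and array, already brought to equal array means. MAS5, RMA and Partek appear in the submitters' processing notes, with no role or version. Which of them made the values, the background correction and the summary method are not given in the sources used here. Nothing in the labels ties the replicates to separate parents or days, so SDs measure the spread between these samples.

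No further normalisation, filter or offset was applied. After 77 control probe sets were set aside, 20766 of 22548 probe sets had 1 gene symbol, 887 several and 895 none, and only those with 1 were named. Of 17118 genes, 17077 were matched to the gene table. Genes were ranked by the mean over 3 arrays and set against the highest of 5 yeast control probe sets per array, with no test between groups, as 1 group was described. In an alternative call, limma 3.58.1 in R 4.3.3 tested each gene's excess over that control, one-sided, with Benjamini-Hochberg adjustment over all genes at 0.05. On simulated data it recovered 89% of genes with an excess of 0.5 log2 and 99% at 1, and called 17 genes with no excess. The simulated noise was independent between genes. An error in the yeast value that all genes of an array share was therefore not tested. Other alternatives changed the background, array scaling, probe set and replicates used. Summaries used Python 3.11.15 with pandas 2.3.3.

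The 59 gene lists and all members were chosen with earlier results of these data known. Named genes are the 30 brightest, the 12 widest in range among genes above background, up to 4 highest and 3 lowest members per list, all members of the insulin-like receptor and TOR and AMPK lists, the highest member of families given, ogt-1 and oga-1, and the 3 genes with the largest gap between probe sets. Others are marked as named after their values were seen, or stand as further examples of their list. Protein length and sequences were not used here.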

Additional observations from a re-analysis of the deposited data

How the results depend on the processing

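The count of 9710 genes above background stayed within 1.5 times under every alternative tried. It was 12207 (71.3%) against the median of the yeast controls, 6787 (39.6%) with a margin of 1 log2 unit, 9710 with equal array medians, 9712 after quantile normalisation, 9522 with the mean and 9114 with the dimmest probe set of a gene, and 9398 (54.9%) by limma's one-sided test. Equal medians and quantile normalisation keep the order of values within an array, so they could hardly change this call and do not test it. Probe sets without the suffix _s_ or _x_ gave 6963 of 13618 genes (51.1%). Leaving out each array in turn gave 9759 to 10319. The margin of 1 log2 unit moved the count of 18 of the 59 lists by over 1.5 times, and the median of the yeast controls that of 5. Probe sets without the suffixes, which cover fewer genes, moved the count of 36. They moved the median level of 40 lists by more than the list's median SD over the arrays. The dimmest probe set of a gene moved the median level of 28 lists, and the mean of the probe sets that of 16. Of the 59 lists, 51 stayed on the same side of the share of all genes under all 12 settings. These settings include the reported one itself, and the equal-median and quantile settings, which could hardly differ from it. The exceptions were insulin-like peptides (37.5% to 83.3%), histones (50% to 88.5%), hypodermis and seam (35.5% to 87.1%), touch neurons (50% to 100%), glia (25% to 62.5%), germ cells (32.3% to 87.1%), oocyte and eggshell (19% to 95.2%) and nuclear hormone receptors (33.9% to 71.3%). The brightest 30 shared 19 genes with those read by the mean and 17 with those read by the dimmest probe set, 10 with those from probe sets without the suffixes, and 26 to 30 with those from 2 arrays, and ribosomal protein genes held 21 to 25 places throughout. Without replicate 1 or replicate 2 the brightest gene was rpl-8 in place of asp-1. The cause of these shifts was not tested. No paired analysis was possible because only the wild type arrays were used. Values near the yeast controls have no resolved order.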

Other observations

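Of the 171 brightest genes 52 stood in none of the lists. Among those, named after their values were seen, were the polyadenylate-binding protein gene pab-1 at 13.94, the ornithine decarboxylase antizyme gene oaz-1 at 13.80, the calcium pump gene sca-1 at 13.68 and the polyubiquitin gene ubq-1 at 13.27. The neuroendocrine chaperone gene sbt-1, whose relatives help prohormone convertases mature, read 13.56, and pghm-1, for a peptide amidating enzyme, 13.30. The alcohol dehydrogenase gene adh-1 averaged 13.51 and the lipin gene lpin-1 13.31.

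Outside protein-coding genes, the brightest non-coding RNA was tts-1, which read 13.95, 13.93 and 13.82, rank 75 of all genes. The brightest gene classed as a pseudogene was F07H5.5, with 13.47, 13.39 and 13.25. Of 887 probe sets that name several genes 384 lay above background, and of 895 that name none 285 did.

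Some families of receptors and globins lay mostly above background. Of 44 neuropeptide receptor genes named npr 36 passed (81.8%), of 17 named frpr 15 (88.2%) and of 30 globin genes (glb) 25 (83.3%), beside 56.7% of all genes. Their highest members were npr-5 at 9.82, frpr-18 at 8.95 and glb-1 at 11.31, the last of which read 11.78, 11.41 and 10.74.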
